A study of Mus musculus with 8 samples.

Results

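The genes described here are 10 members of the Wnt pathway, chosen by name: the ligand genes Wnt7a and Wnt7b, the receptor genes Lgr4 and Lgr5, the feedback targets Axin2 and Nkd1, the transcription factor genes Lef1, Tcf7l1 and Tcf7l2, and Ctnnb1, which encodes beta-catenin. These genes were chosen with earlier results of these data known. All 10 were found among the 15538 genes measured. Expression was measured by bulk sequencing of polyadenylated RNA from neurospheres, which are floating clusters of primary mouse neural stem cells from embryonic brain. By the labels, 4 libraries came from Phf23-/- cells, which lack the PHD-finger chromatin protein Phf23, and 4 from wild-type cells. Embryonic age, allele design and the origin of the replicates (cultures, litters or animals) are not in the labels. All p-values therefore refer to variation among these libraries, part of which may be technical. The purpose given for the series is the mechanism by which embryonic neural stem cells without Phf23 fail to differentiate.

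Wnt proteins are secreted, lipid-bearing signals. When one binds a Frizzled receptor and an Lrp5 or Lrp6 co-receptor, the complex that normally destroys beta-catenin is held back, and beta-catenin enters the nucleus, binds TCF/LEF factors and turns on targets, among them genes whose products damp the pathway again. In the embryonic mouse brain, neural progenitors make Wnt7a and Wnt7b, which act on the progenitors themselves and on the growing vessels. Tcf7l2 has also been called TCF4 in the Wnt literature, but it is a different gene from Tcf4, the E protein gene named in the title of the series. Tcf4 averaged 7256 ± 1311 normalised reads in libraries labelled knockout and 12769 ± 1815 in those labelled wild type (SD, n = 4 each, log2 -0.82 ± 0.140 SE, limma-trend FDR = 0.00369). Its log2 fold change was -0.30 after removal of a per-library dependence on transcript length and GC (FDR = 0.00785), -0.48 without libraries 1 and 2 of each label (FDR = 0.000405), and -0.31 with the slope of each library on transcript length as a covariate (FDR = 0.27).

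In mm10 with GENCODE M21 coordinates, the ligand genes are Wnt7a at chr6:91363981-91411363 (minus strand, ENSMUSG00000030093) and Wnt7b at chr15:85535437-85582473 (minus strand, ENSMUSG00000022382). The receptor genes are Lgr4 at chr2:109917647-110014257 (plus strand, ENSMUSG00000050199) and Lgr5 at chr10:115450311-115587780 (minus strand, ENSMUSG00000020140). The feedback targets are Axin2 at chr11:108920349-108950783 (plus strand, ENSMUSG00000000142) and Nkd1 at chr8:88521354-88594884 (plus strand, ENSMUSG00000031661). The TCF/LEF genes are Lef1 at chr3:131110471-131224356 (plus strand, ENSMUSG00000027985), Tcf7l1 at chr6:72626378-72789254 (minus strand, ENSMUSG00000055799) and Tcf7l2 at chr19:55741820-55933654 (plus strand, ENSMUSG00000024985), and beta-catenin is encoded by Ctnnb1 at chr9:120929216-120960507 (plus strand, ENSMUSG00000006932). Values are totals over each gene.

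The targeted gene went against the labels. Phf23 read 1607, 1528, 1429 and 1361 normalised reads (gene read counts divided by a size factor per library) in the libraries labelled Phf23 knockout, against 720.4, 766, 788 and 919 in those labelled wild type. The difference was called by limma-trend (log2 fold change 0.89 ± 0.106 SE, FDR = 0.000581), and a total over the gene cannot show whether some exons are missing. Every direction below is therefore between libraries as labelled. Depth, as recovered reads, was 18099114 to 19462516 in the knockout-labelled libraries and 15647304 to 18241215 in the wild-type-labelled libraries. All 7 neural stem cell markers examined were measured, with summed levels of 152853 to 195291 normalised reads in knockout-labelled and 132998 to 142992 in wild-type-labelled libraries. Of these markers 2 were called as higher, Fabp7 and Msi1, and 0 as lower. Vim, the largest part of the sum, had 71230 to 106638 and 63467 to 72713 normalised reads and was not called. Nes, Pax6 and Slc1a3 had log2 fold changes of -0.11, 0.086 and -0.0078 and were not called. All 4 astrocyte markers measured, of 5 listed, were called, Gfap and S100b as higher and Aqp4 and Aldh1l1 as lower. The share called over all genes was 29.6%. The 4 calls were kept with the per-library dependence on transcript length and GC removed. With the slope of each library on transcript length as a covariate, only Aldh1l1 of the 4 was called, beside 1.09% of all genes. The summed level of these 4 markers was 2268 to 2532 normalised reads in knockout-labelled and 3059 to 3732 in wild-type-labelled libraries. Its part in the results below was not tested. The 6 neuron markers, all measured, summed to 718 to 822 normalised reads in knockout-labelled and 717 to 928 in wild-type-labelled libraries, with 1 called as higher and 0 as lower. Microglial, endothelial, fibroblast and choroid plexus marker sums stayed at or below 72.4 normalised reads in every library. These sums rest on 1, 4, 2 and 5 measured markers, of 6 listed for each.

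Of the 10 genes, 5 rose, 2 fell and 3 did not pass the test in the libraries labelled knockout (limma-trend on log2(value + 1), FDR under 0.05). Both Wnt7 ligand genes rose, both Lgr receptor genes fell, and of the feedback targets only Axin2 was called, as higher. Over all 15538 genes, 29.6% were called, 14.8% as higher and 14.8% as lower. Values did not overlap between the labelled genotypes for 9 of the 10 genes, against 27.7% of all genes. Because the 10 genes were chosen with earlier results known, setting their counts beside these shares is a description and not a test. The median log2 fold change was 0.11 over the 10 genes and 0.00055 over all genes.

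**Figure D1:**
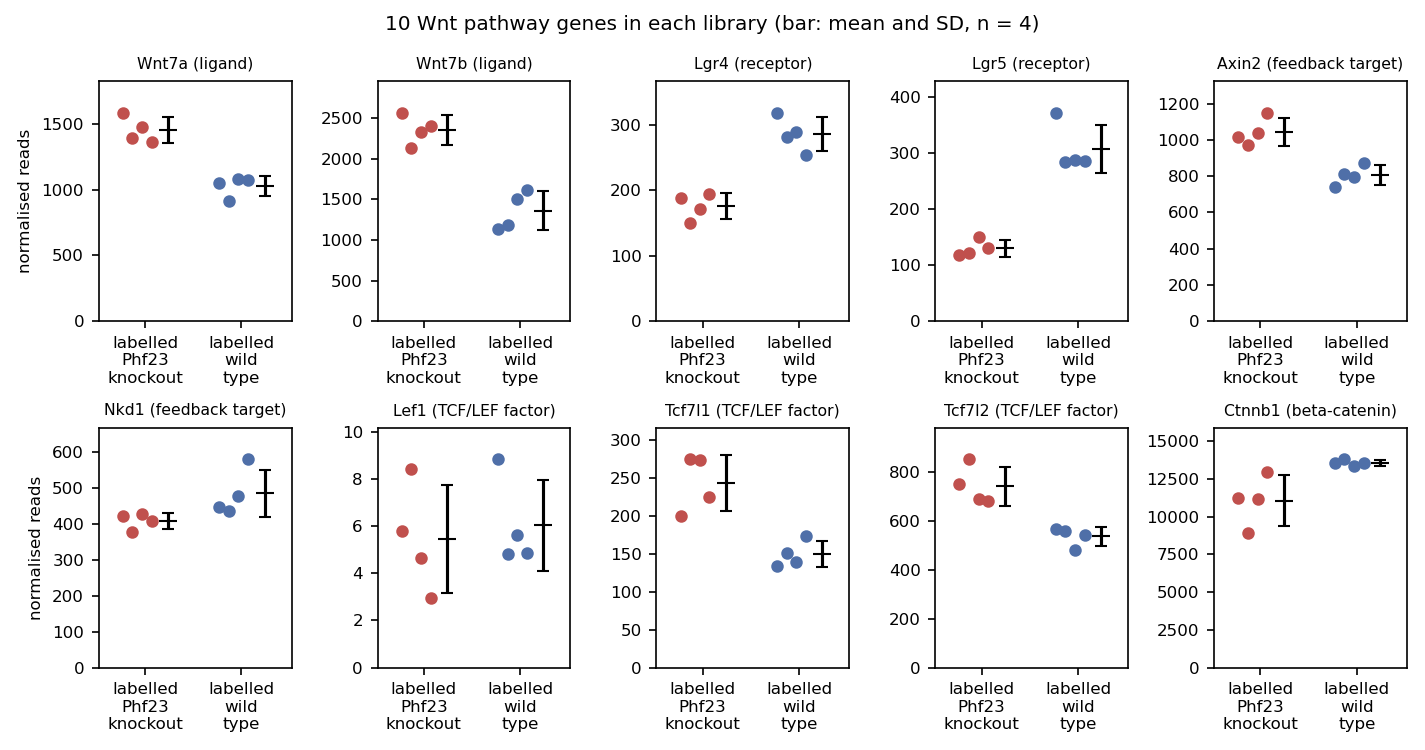
Normalised reads of the 10 genes in each library, on linear axes from 0. Points are libraries in the order of replicate number, knockout-labelled on the left and wild-type-labelled on the right, and the bar is the mean with its SD (n = 4). Lef1 is the gene whose labelled genotypes overlap.

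Wnt7b had 2566, 2127, 2329 and 2398 normalised reads in libraries labelled knockout and 1131, 1179, 1508 and 1613 in those labelled wild type. Every knockout-labelled library was above every wild-type-labelled one, and the wild-type-labelled libraries 1 and 2 were the lowest. Wnt7b averaged 2355 ± 181 and 1358 ± 239 (SD, n = 4 each) and was 1.73-fold higher, with a log2 fold change of 0.81 ± 0.126 (SE, 95% interval 0.53 to 1.08, limma-trend FDR = 0.0027). Its paralogue Wnt7a had 1584, 1391, 1476 and 1362 normalised reads in libraries labelled knockout, against 1047, 915, 1079 and 1073 in those labelled wild type. The groups again did not overlap, and the knockout-labelled mean was 1.41-fold higher (log2 0.50 ± 0.099 SE, 95% interval 0.28 to 0.71, limma-trend FDR = 0.00649). With bulk RNA, more cells that make a transcript and more of it per cell cannot be told apart.

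The Wnt7 genes were the most abundant Wnt ligand genes per length in these cells. In reads per kilobase of the longest annotated transcript, Wnt7b stood at 693 ± 53.4 and Wnt7a at 458 ± 31.4 in knockout-labelled libraries, and at 399 ± 70.3 and 324 ± 24.3 in wild-type-labelled ones (SD, n = 4 each). Wnt5a, usually a ligand of beta-catenin-independent signalling, came next with mean levels of 193 and 218 reads per kilobase. The other 9 ligand genes measured lay at or below 63.1 in the knockout-labelled and 33.9 in the wild-type-labelled libraries. The Wnt7-specific co-receptor genes Reck and Adgra2 (also called Gpr124), which let mouse brain vessels read Wnt7, did not pass the test. Reck averaged 125 ± 14.6 normalised reads in knockout-labelled and 162 ± 21.3 in wild-type-labelled libraries (FDR = 0.0822), and Adgra2 averaged 88.8 ± 22.7 and 114 ± 28.4 (FDR = 0.235, limma-trend for both, SD, n = 4 each).

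Lgr5 showed the largest change among the 10 genes. It encodes a receptor for R-spondins, secreted proteins that keep Frizzled receptors at the cell surface by drawing away the ubiquitin ligases Znrf3 and Rnf43. Lgr5 had 117, 121, 151 and 130.1 normalised reads in libraries labelled knockout and 372, 284, 288 and 286 in those labelled wild type. All knockout-labelled libraries were below all wild-type-labelled ones, among which library 1 stood above the other 3. Lgr5 averaged 129.8 ± 14.9 and 307 ± 43.0 (SD, n = 4 each) and was 2.37-fold lower (log2 -1.23 ± 0.141 SE, 95% interval -1.54 to -0.93, limma-trend FDR = 0.000534).

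Lgr4, which encodes the related R-spondin receptor with the broader expression in mouse tissues, fell too. It had 188, 149.5, 171 and 194 normalised reads in the knockout-labelled libraries, against 318, 281, 288 and 254 in the wild-type-labelled ones. The groups did not overlap, and the level was 1.63-fold lower (log2 -0.70 ± 0.132 SE, 95% interval -0.99 to -0.41, limma-trend FDR = 0.00553). Rnf43 and Znrf3 themselves did not pass the test. Znrf3 averaged 631 ± 73.8 normalised reads in knockout-labelled and 737 ± 33.2 in wild-type-labelled libraries (SD, n = 4 each, limma-trend FDR = 0.131), and Rnf43 averaged 7.57 ± 1.26 and 10.3 ± 1.37 (FDR = 0.373).

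Axin2 encodes a scaffold of the beta-catenin destruction complex and is a widely used transcriptional readout of beta-catenin signalling. It had 1014, 972, 1038 and 1150 normalised reads in libraries labelled knockout and 742, 814, 798 and 873 in those labelled wild type. The lowest knockout-labelled library was above the highest wild-type-labelled one. Axin2 averaged 1043 ± 75.9 and 807 ± 53.9 (SD, n = 4 each) and was 1.29-fold higher (log2 0.37 ± 0.0998 SE, 95% interval 0.15 to 0.59, limma-trend FDR = 0.0175). The call was lost without wild-type-labelled library 1 (log2 0.33, FDR = 0.0592) or 2 (log2 0.38, FDR = 0.052), and with scaling by library size only (log2 0.31, FDR = 0.0506).

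Nkd1, which encodes a Dishevelled-binding inhibitor of the pathway and is another feedback target, did not pass the test. It had 421, 378, 428 and 407 normalised reads in the knockout-labelled libraries, against 446, 436, 477 and 579 in the wild-type-labelled libraries. The knockout-labelled values lay below the wild-type-labelled ones by a narrow margin, and wild-type-labelled library 4 was well above the rest. The log2 fold change was -0.24 ± 0.119 (SE, 95% interval -0.49 to 0.019, limma-trend FDR = 0.146). The estimates for the feedback targets were of opposite sign with intervals that did not overlap, and the difference between them was not tested.

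Around the start sites of the genes, the letters CTTTGA and CTTTGT, the core of the site that TCF/LEF factors bind, were searched on both strands in windows from 250 bases before to 50 after each RefSeq start. Matches on the same strand cannot overlap each other, whereas matches on opposite strands can share an end base. Of 32851 windows of this length in the mouse genome, 31.2% held at least 1 match. Windows were found for 8 of the 10 genes, all but Wnt7b and Lgr5. Those of Wnt7a, Lgr4, Axin2, Nkd1 and Ctnnb1 held none, 1 of 4 windows of Lef1 held 3, the window of Tcf7l1 held 1 and 1 of 2 windows of Tcf7l2 held 1. The window of Axin2 (chr11:108920099-108920398, plus strand) is shown as that of the feedback target called as higher, beside those of the TCF genes called as higher, Tcf7l1 (chr6:72788996-72789295, minus strand) and the downstream start of Tcf7l2 (chr19:55895071-55895370, plus strand). They are RefSeq sequences of GRCm38.p6, 5′ to 3′ on the strand of the gene, with motif matches in capitals. A match is not evidence of binding, and the absence of these letters says nothing of sites outside the window.
Axin2: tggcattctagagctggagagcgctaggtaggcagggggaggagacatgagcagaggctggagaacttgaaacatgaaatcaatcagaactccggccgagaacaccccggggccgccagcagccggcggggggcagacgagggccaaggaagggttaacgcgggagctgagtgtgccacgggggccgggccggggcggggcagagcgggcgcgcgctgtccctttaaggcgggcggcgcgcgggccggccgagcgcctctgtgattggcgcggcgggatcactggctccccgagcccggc
Tcf7l1: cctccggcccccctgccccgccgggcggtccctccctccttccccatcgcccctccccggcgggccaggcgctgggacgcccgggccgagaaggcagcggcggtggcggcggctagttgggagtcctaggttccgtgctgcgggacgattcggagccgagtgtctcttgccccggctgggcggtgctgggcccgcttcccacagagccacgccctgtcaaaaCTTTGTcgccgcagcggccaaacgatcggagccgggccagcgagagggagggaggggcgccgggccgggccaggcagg
Tcf7l2: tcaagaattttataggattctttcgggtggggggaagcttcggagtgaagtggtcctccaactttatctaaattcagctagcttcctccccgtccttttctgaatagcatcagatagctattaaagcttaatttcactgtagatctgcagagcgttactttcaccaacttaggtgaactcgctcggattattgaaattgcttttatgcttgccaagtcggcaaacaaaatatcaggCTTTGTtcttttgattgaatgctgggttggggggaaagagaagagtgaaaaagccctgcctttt

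Tcf7l1, whose product mostly represses Wnt targets until beta-catenin displaces it, rose. It had 200.2, 275, 274 and 225 normalised reads in libraries labelled knockout and 134, 152, 139.5 and 173 in those labelled wild type. The groups did not overlap, and the mean was 1.63-fold higher (log2 0.69 ± 0.148 SE, 95% interval 0.37 to 1.01, limma-trend FDR = 0.00841). Tcf7l2, which encodes the TCF factor that also acts in the maturation of mouse oligodendrocytes, had 748, 851, 687 and 679 normalised reads in the knockout-labelled libraries, against 566, 558, 480.4 and 541 in the wild-type-labelled libraries. It averaged 741 ± 79.4 and 536 ± 38.7 (SD, n = 4 each) and the groups did not overlap (log2 0.46 ± 0.111 SE, 95% interval 0.22 to 0.70, limma-trend FDR = 0.0121). Of 8 oligodendrocyte lineage markers, all measured, 6 were called as higher and 0 as lower, against 14.8% of all genes each way. Their summed level was 1048 to 1278 normalised reads in knockout-labelled and 561 to 687 in wild-type-labelled libraries, and its part in the Tcf7l2 result was not tested.

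Lef1, the TCF/LEF gene most often used as a marker of Wnt-active progenitors, was close to the limit of detection. It had 6, 8, 5 and 3 recovered reads in the knockout-labelled libraries and 9, 5, 5 and 5 in the wild-type-labelled libraries. The labelled genotypes overlapped, and the log2 fold change was -0.16 ± 0.424 (SE, 95% interval -1.08 to 0.76, limma-trend FDR = 0.807). Differences as large as those of Lgr4 and Tcf7l1 lie within this interval, so a change of that size was not detectable at this depth. Tcf7, the remaining TCF/LEF gene and not among the 10, fell to 103 ± 7.41 normalised reads in knockout-labelled libraries, against 146 ± 23.1 in wild-type-labelled ones (SD, n = 4 each, log2 -0.48, limma-trend FDR = 0.0375). Among the TCF/LEF genes, 2 thus rose and 1 fell.

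Ctnnb1 was by far the most abundant of the 10. Its product serves both Wnt signalling and cadherin junctions, and its activity is set mostly by protein stability, which RNA does not measure. Ctnnb1 had 11230, 8910, 11195 and 12964 normalised reads in libraries labelled knockout and 13551, 13809, 13342 and 13548 in those labelled wild type. The wild-type-labelled libraries were nearly alike, whereas the knockout-labelled ones were all lower and spread widely. The log2 fold change of -0.30 ± 0.115 (SE, 95% interval -0.55 to -0.056) did not pass the test (limma-trend FDR = 0.0617). It was called with DESeq2 (log2 -0.29, FDR = 0.0416), with scaling by library size only (log2 -0.37, FDR = 0.0458), after removal of a per-library dependence on transcript length and GC (log2 -0.27, FDR = 0.0369) and without knockout-labelled library 4 (log2 -0.38, FDR = 0.0121). It was smaller and not called without libraries 1 and 2 of each label (log2 -0.16, FDR = 0.409), and near 0 with the slope of each library on transcript length as a covariate (log2 -0.022, FDR = 0.974). Its exons share 759 bases with the opposite-strand gene Ulk4, and those of Wnt7b share 324 bases with the antisense gene AU022754. Axin2, Tcf7l1 and Lef1 share 209, 179 and 1208 exon bases with the antisense genes Gm11670, Gm15401 and Gm43352, which were not analysed here. Use of strand in the counting is not given, so reads of such pairs cannot be told apart. Ulk4 and AU022754 averaged 65.7 and 18.2 normalised reads in knockout-labelled and 57.2 and 12.6 in wild-type-labelled libraries.

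The order of the 10 genes by reads per kilobase was similar in both labelled genotypes. Lgr5 and Tcf7l1 changed places most. In knockout-labelled libraries it ran Ctnnb1 (3057), Wnt7b (693), Wnt7a (458), Axin2 (245), Tcf7l2 (199), Nkd1 (100.1), Tcf7l1 (80.1), Lgr4 (34.7), Lgr5 (27.1) and Lef1 (1.49). In wild-type-labelled libraries Ctnnb1 (3743), Wnt7b (399), Wnt7a (324), Axin2 (189), Tcf7l2 (144) and Nkd1 (119) kept this order, followed by Lgr5 (64.2), Lgr4 (56.4), Tcf7l1 (49.2) and Lef1 (1.65). Neighbours whose libraries overlapped were Axin2 with Tcf7l2 and Lgr4 with Lgr5 in the knockout-labelled group. In the wild-type-labelled group they were Wnt7b with Wnt7a, Tcf7l2 with Nkd1, Lgr5 with Lgr4, and Lgr4 with Tcf7l1. These levels depend on the longest annotated transcript being the one expressed.

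Ratios within a library showed how related genes shifted against each other. Wnt7b over Wnt7a, in reads per kilobase, was 1.51, 1.43, 1.47 and 1.64 in the knockout-labelled libraries and 1.01, 1.20, 1.30 and 1.40 in the wild-type-labelled ones. The ranges came close but did not overlap. Lgr5 over Lgr4 was 0.66, 0.855, 0.929 and 0.709 in knockout-labelled libraries, against 1.23, 1.07, 1.06 and 1.19 in wild-type-labelled libraries. Per kilobase, Lgr5 was thus the scarcer receptor transcript in the knockout-labelled group and slightly the more abundant one in the wild-type-labelled group. In wild-type-labelled library 3 both genes had 256 recovered reads, so their order there rests on the annotated transcript lengths (4793 bases for Lgr5 and 5060 for Lgr4). Axin2 over Nkd1 was 2.31, 2.46, 2.32 and 2.71 in knockout-labelled libraries and 1.60, 1.79, 1.60 and 1.44 in wild-type-labelled ones, with a clear gap between them. Tcf7l2 over Tcf7l1 averaged 2.53 ± 0.414 and 2.96 ± 0.377 (SD, n = 4 each) and overlapped. These ratios were not tested, since the genes were chosen with results known.

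**Figure D2:**
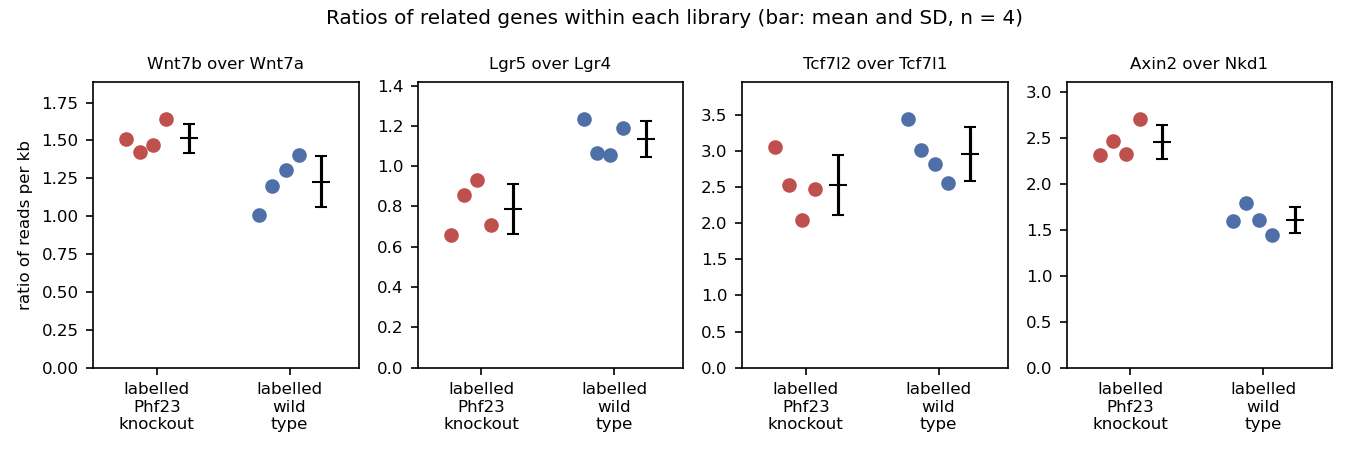
Ratio of reads per kilobase of 4 gene pairs within each library, on linear axes from 0, knockout-labelled on the left and wild-type-labelled on the right, with mean and SD (n = 4). The Axin2 over Nkd1 ratio averages 2.45 in the knockout-labelled and 1.61 in the wild-type-labelled libraries, and the Tcf7l2 over Tcf7l1 ratios overlap.

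Means over related genes set the roles side by side. The mean log2 fold change was 0.65 over the Wnt7 ligand genes, -0.97 over the Lgr receptor genes, 0.066 over Axin2 and Nkd1, and 0.58 over Tcf7l1 and Tcf7l2. The ligand mean was above its average over all 8 libraries in each knockout-labelled library (0.45, 0.22, 0.33 and 0.30) and below it in each wild-type-labelled one (-0.44, -0.50, -0.21 and -0.16). The receptor mean did the reverse, with -0.50, -0.64, -0.39 and -0.40 in knockout-labelled and 0.71, 0.42, 0.45 and 0.35 in wild-type-labelled libraries. The mean of the feedback targets overlapped between the groups, at 0.036, -0.071, 0.065 and 0.10 in knockout-labelled and -0.15, -0.097, -0.046 and 0.16 in wild-type-labelled libraries, and it averages genes whose estimates had opposite signs. These means describe 2 genes each, chosen with results known, and differences between roles were not tested.

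The labelled genotypes also differed in how read numbers depended on transcript length. The length slope of a library is the change of its log2 values, relative to the mean of all libraries, per doubling of transcript length. It was -0.24, -0.31, -0.093 and 0.040 in the knockout-labelled libraries 1 to 4 and 0.26, 0.20, 0.079 and 0.062 in the wild-type-labelled libraries 1 to 4 (exact permutation test, two-sided, p = 0.0286, which no arrangement of 4 against 4 can go below). Knockout-labelled library 4 and wild-type-labelled libraries 3 and 4 thus had nearly equal slopes. In these 3 libraries Wnt7b had 2398 against 1508 and 1613 normalised reads, Lgr5 had 130.1 against 288 and 286, and Axin2 had 1150 against 798 and 873. Wnt7a had 1362 against 1079 and 1073, Lgr4 had 194 against 288 and 254, and Nkd1 had 407 against 477 and 579. Ctnnb1 was nearly level there, at 12964 against 13342 and 13548.

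**Figure D3:**
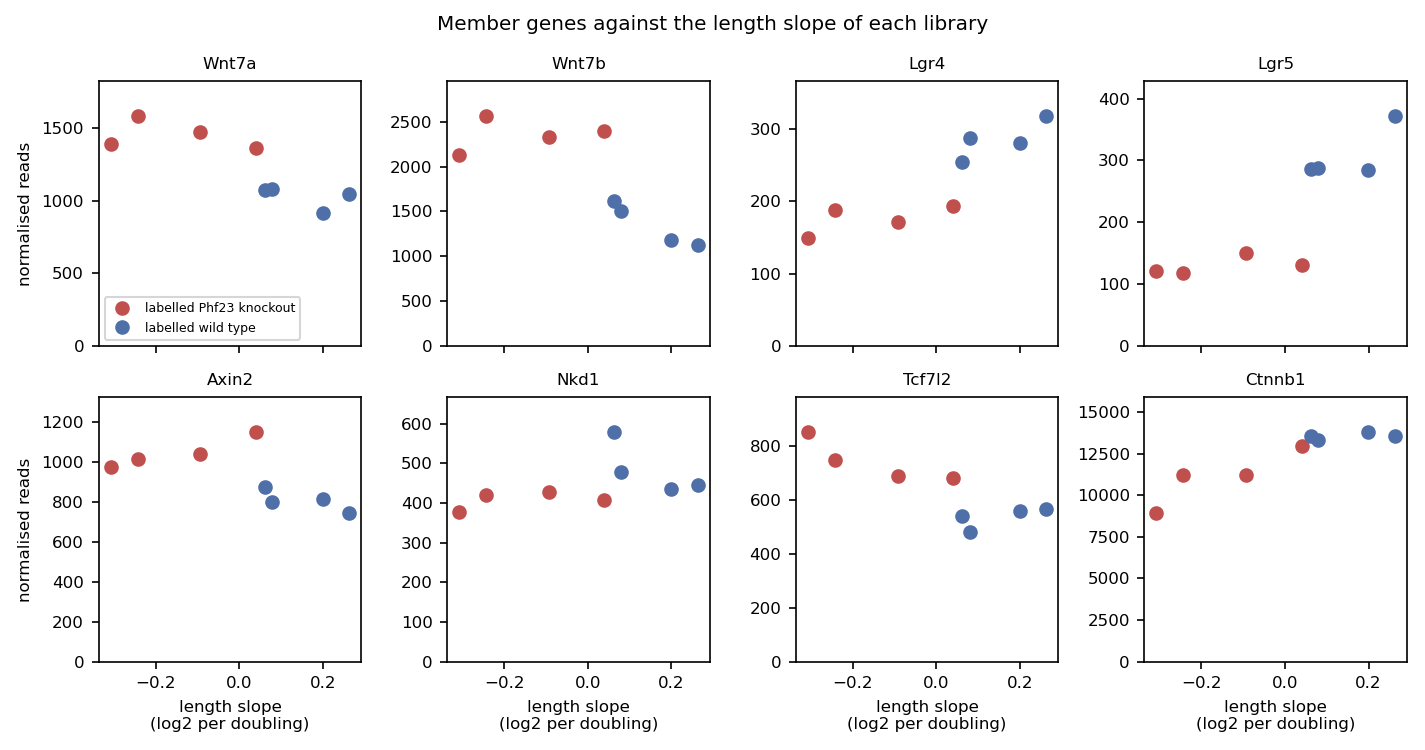
Normalised reads of 8 of the genes (linear axes from 0) against the length slope of each library (log2 per doubling). Points are libraries. Where slopes are between 0.040 and 0.079, Lgr5 is at 130.1 in the knockout-labelled library and at 286 and 288 in the wild-type-labelled libraries, whereas Ctnnb1 is nearly level.

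The 7 calls were kept in direction and threshold when the dependence of each library on transcript length and GC was removed, with log2 fold changes of 0.63 for Wnt7b, 0.37 for Wnt7a, -0.98 for Lgr5, -0.45 for Lgr4, 0.39 for Axin2, 0.47 for Tcf7l1 and 0.56 for Tcf7l2. In that fit 19.3% of all genes were called. The same 7 were called without the 4 libraries of the steepest slopes, where 9.15% of all genes were. With the slope as a covariate beside genotype, 1.09% of all genes and, of the 7, only Lgr5 were called (log2 -0.99, FDR = 0.0294). The fold changes there were 0.64 for Wnt7b (FDR = 0.102), 0.40 for Wnt7a (FDR = 0.216), -0.45 for Lgr4 (FDR = 0.398), 0.44 for Axin2 (FDR = 0.16), 0.57 for Tcf7l1 (FDR = 0.356) and 0.34 for Tcf7l2 (FDR = 0.447, limma-trend throughout). Slope and label do not overlap, so that fit has little left to separate them.

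**Figure D4:**
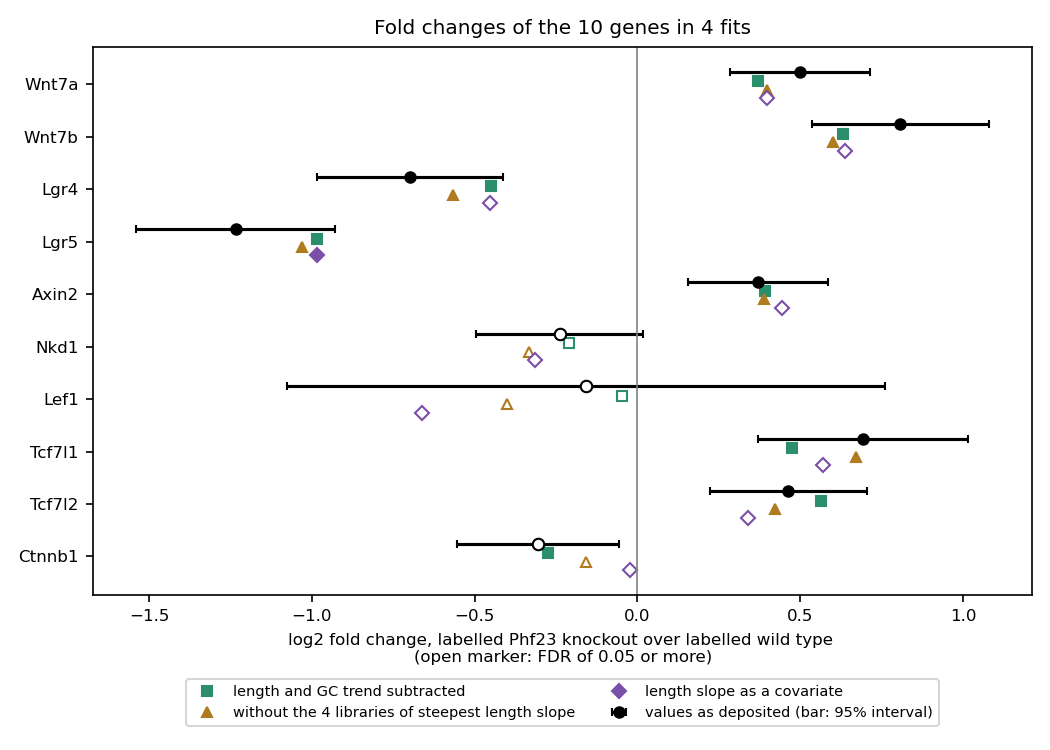
Log2 fold changes of the 10 genes, labelled knockout over labelled wild type, in 4 fits. Black circles with 95% intervals are values as deposited, other markers are fits that concern transcript length, and open markers have an FDR of 0.05 or more. Lgr5 is called in all 4 fits, at -1.23, -0.98, -1.03 and -0.99 from top to bottom, and Lef1 in none.

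Genes of the wider pathway were called in both directions. Of 107 genes listed by role, 89 were measured and 18 were not analysed here. Of the 89, 9 rose and 15 fell, a share of 27.0% against 29.6% of all genes, and the median log2 fold change was -0.13 against 0.00055 over all genes. Without the 10 genes above, 4 rose and 13 fell of 79, or 21.5%. By role, the share called was 33.3% of ligand, 0% of ligand release, 22.2% of receptor and 40% of R-spondin axis genes. It was 33.3% of secreted inhibitor, 14.3% of cytoplasmic transducer and 37.5% of destruction complex genes. For TCF/LEF and co-factor genes it was 33.3%, for feedback targets 12.5% and for other targets 30%. With scaling by library size only, 6 of the 89 were called as higher and 20 as lower, and the split over all genes was 1827 higher and 2757 lower in place of 2301 and 2292. With the length and GC trend subtracted, 8 were higher and 9 lower, and over all genes 1903 were higher and 1093 lower. Without libraries 1 and 2 of each label, 7 were higher and 9 lower, or 16 of 89, against 1422 of 15538 genes (9.15%). The share of the list called thus lay below that of all genes as deposited and above it without those libraries. However, 7 of the 16 were among the 10 genes chosen with earlier results known, so no conclusion about the list is drawn from the higher share.

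Among 12 measured ligand genes, 4 rose and 0 fell, a share of 33.3% against 29.6% of all genes. Of the 12, only 7 averaged at least 10 normalised reads, and the Wnt7 genes were chosen with results known. Besides the Wnt7 genes, Wnt4 reached 133 ± 21.5 normalised reads in knockout-labelled libraries, against 46.6 ± 8.76 in wild-type-labelled ones (SD, n = 4 each, log2 1.49, limma-trend FDR = 0.000835). Wnt5b averaged 149.7 ± 4.02 and 80.5 ± 18.8 (log2 0.92, limma-trend FDR = 0.0059), and was at 0.61 with the length and GC trend subtracted (FDR = 0.00749). Wnt5a did not pass, with a log2 fold change of -0.18 (FDR = 0.246). None of the 3 measured genes for ligand release and modification passed, among them Wls, the Wnt carrier protein gene (log2 -0.13, FDR = 0.322), and Porcn, the gene of the acyltransferase that lipidates Wnts (log2 0.26, FDR = 0.175).

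Of 18 receptor and co-receptor genes, 2 rose and 2 fell. The Frizzled genes Fzd2 (log2 0.45, FDR = 0.0452) and Fzd9 (log2 0.39, FDR = 0.0375) rose, and Fzd3 (log2 -0.62, FDR = 0.00918) and the co-receptor gene Lrp6 (log2 -0.66, FDR = 0.00642) fell. With the length and GC trend subtracted, none of these 4 was called, and Lrp6 was at -0.14 (FDR = 0.207). Without libraries 1 and 2 of each label, only Lrp6 of these 4 was called (log2 -0.36, FDR = 0.0236). In the R-spondin axis, 2 of 5 measured genes fell, both of them the Lgr genes above, and 0 rose.

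Secreted inhibitors had 3 lower and 0 higher of 9, a share of 33.3% against 29.6% of all genes. Frzb, which encodes a soluble Frizzled-like Wnt trap, fell to 21.1 ± 1.96 normalised reads in knockout-labelled libraries, against 62.6 ± 2.37 in wild-type-labelled ones (SD, n = 4 each, log2 -1.53, limma-trend FDR = 0.000948). It was also called with the slope as a covariate (FDR = 0.0395). Draxin, the gene of a secreted guidance cue that binds Lrp6, averaged 178 ± 16.9 and 299 ± 46.8 (log2 -0.73, FDR = 0.00619), and Sfrp1 averaged 81.8 ± 10.8 and 119.8 ± 23.4 (log2 -0.53, FDR = 0.0407). Sfrp1 lost its call with the length and GC trend subtracted (log2 -0.44, FDR = 0.0852) and without libraries 1 and 2 of each label (log2 -0.56, FDR = 0.101).

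Of 8 genes listed for the destruction complex, 3 fell and 0 rose, a share of 37.5% against 29.6% of all genes. Axin2, also a scaffold of this complex and called as higher, was listed only as a feedback target. The scaffold partner gene Amer1 fell by 1.09 on the log2 scale (FDR = 0.00774), Apc by 0.76 (FDR = 0.00825) and the kinase gene Gsk3b by 0.45 (FDR = 0.0148). With the length and GC trend subtracted they were at -0.61 (FDR = 0.0155), -0.20 (FDR = 0.0513) and 0.021 (FDR = 0.859), so that the sign for Gsk3b turned round. Without libraries 1 and 2 of each label, Amer1 (log2 -0.57, FDR = 0.00364) and Apc (log2 -0.32, FDR = 0.0328) were called. Gsk3b was not called there (log2 -0.18, FDR = 0.318). Of 7 cytoplasmic transducer genes 0 rose and 1 fell, the casein kinase gene Csnk1g1 (log2 -0.41, FDR = 0.0456), which lost its call with the trend subtracted (FDR = 0.985). Of 15 TCF/LEF and co-factor genes, 2 rose and 3 fell. The risers were Tcf7l1 and Tcf7l2, and the fallers were Tcf7, the corepressor gene Tle4 (log2 -0.42, FDR = 0.00954) and the beta-catenin adaptor gene Pygo1 (log2 -0.48, FDR = 0.0322). With the trend subtracted Tle4 was at -0.23 (FDR = 0.0301), and Pygo1 lost its call (log2 -0.016, FDR = 0.934).

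Of 8 measured feedback targets, 1 rose, which was Axin2, and 0 fell, with a median log2 fold change of -0.23. Apcdd1, an inhibitor gene, averaged 72.9 ± 16.1 normalised reads in knockout-labelled and 85.3 ± 16.9 in wild-type-labelled libraries (SD, n = 4 each, FDR = 0.445). Sp5, Notum and Rnf43 averaged at most 10.3 normalised reads in either group, where few reads stand behind each value. Of 10 other targets, 0 rose and 3 fell: Lgr5, Tcf7 and the adhesion gene Nrcam (log2 -0.37, FDR = 0.0175). Nrcam lost its call with the length and GC trend subtracted (log2 -0.029, FDR = 0.803) and without libraries 1 and 2 of each label (log2 -0.22, FDR = 0.227). The cell cycle gene Ccnd1 averaged 24761 ± 7025 normalised reads in knockout-labelled libraries and 33316 ± 615 in wild-type-labelled ones and did not pass (log2 -0.48, FDR = 0.0592, limma-trend throughout).

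**Figure D5:**
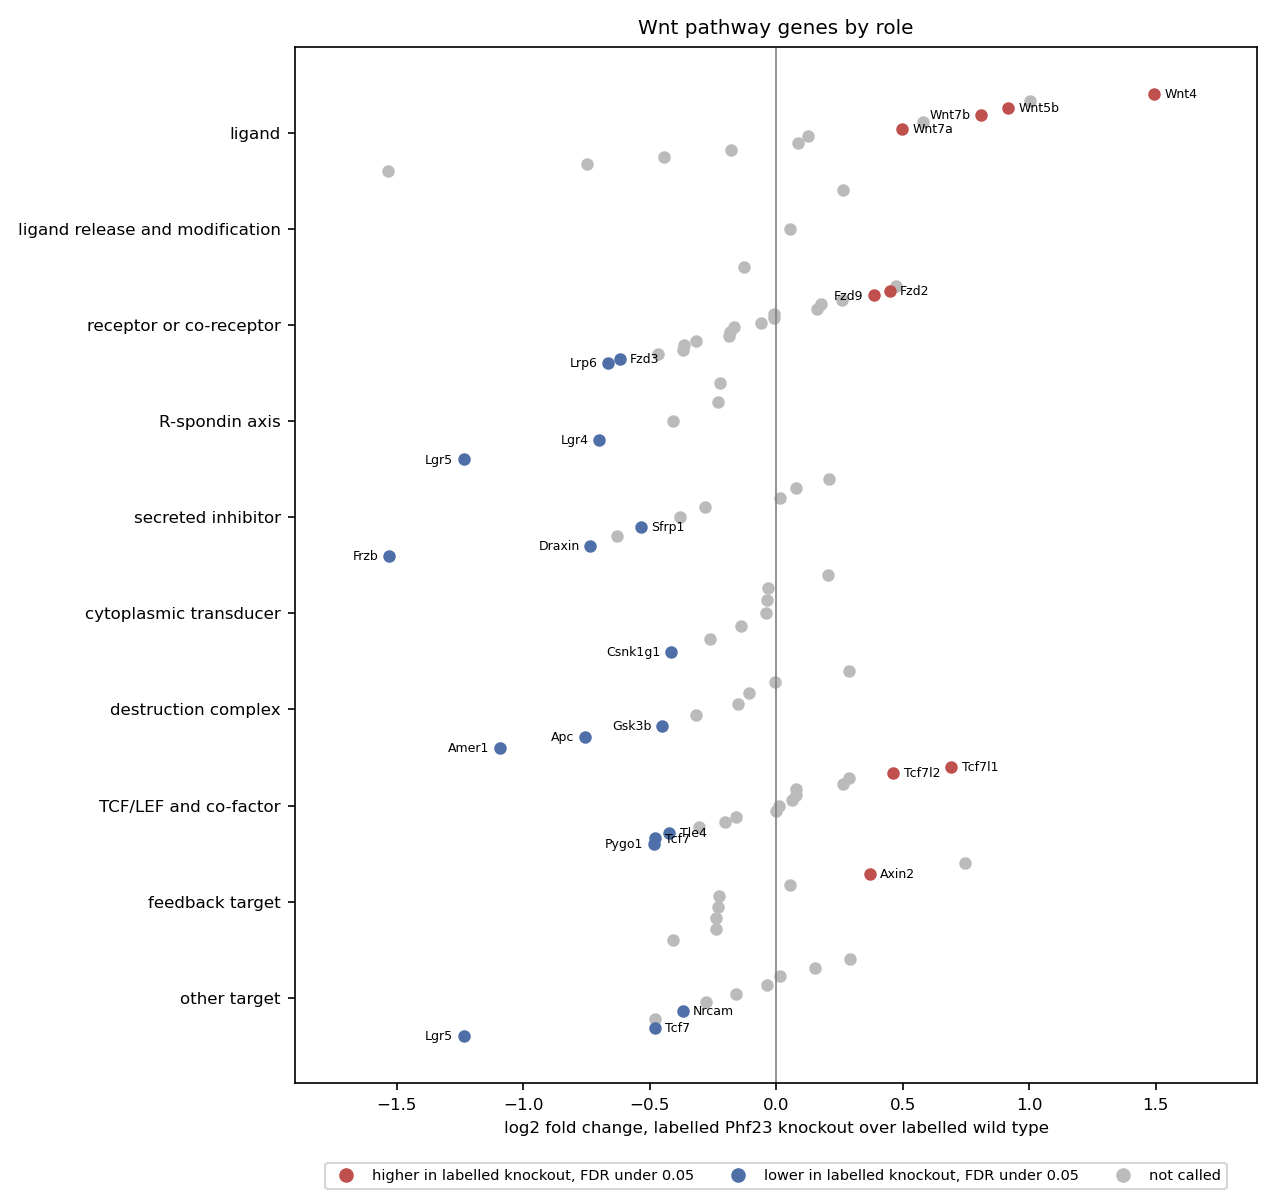
Log2 fold changes, labelled knockout over labelled wild type, of the 89 measured Wnt pathway genes by role. Each point is a gene, a gene with more than 1 role is drawn in each, and height within a role only spreads the points. Called ligands are all to the right (4 of 12), and called secreted inhibitors (3 of 9) and listed destruction complex genes (3 of 8) are all to the left. These shares (33.3%, 33.3% and 37.5%) stand beside 29.6% of all genes. Axin2 is drawn as a feedback target only.

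Each of Wnt7b, Lgr5 and Axin2 was compared with 12641 genes averaging 10 normalised reads or more, without predicted or clone-derived gene names. Genes with the most similar pattern over the 8 libraries were found by the root mean square difference of mean-centred log2 values. For Wnt7b they were Itgb5 (0.068), Lmcd1 (0.0821) and Dbp (0.0946). For Lgr5 they were Myt1l (0.139), Gabra2 (0.143) and Chl1 (0.150), and for Axin2 they included Pygb (0.0321) and Sbno2 (0.0559). Gabra2, which encodes a GABA-A receptor subunit, had 822, 894, 1174 and 1169 normalised reads in the knockout-labelled libraries, against 2430, 2310, 2124 and 1889 in the wild-type-labelled ones. The measure includes the difference between the labelled groups, and the likeness is a description with no test.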

How the data were processed

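The submitters' processing notes name the build mm10 and the tools STAR 2.7.1a, DESeq2 1.38.3, fastp 0.23.4 and FastQC 0.12.1. No source used here names the read counter, its annotation or its strand setting. The signal deposited by the authors for each gene is a read count over a size factor of the library: 100% of values were whole multiples of 1 step per library (tolerance 0.0001 reads). Of 15602 rows, 64 repeated rows were dropped. Identifiers were matched to GENCODE M21, and 15531 of 15538 genes had a transcript length.

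Because the deposited values were normalised, a robust limma-trend fit (limma 3.58.1, R 4.3.3) of labelled genotype alone was made to log2(value + 1), with two-sided p-values adjusted by Benjamini-Hochberg across the 15538 genes. A gene was called at an FDR under 0.05. Fold changes on this scale are understated for genes with few reads. Fold changes are knockout-labelled over wild-type-labelled. On the recovered reads, edgeR 4.0.16 (TMM, or DESeq2 size factors) and DESeq2 1.42.0 were alternatives. The others were a replicate block, library-size scaling, a pseudocount of 0.1, dropping genes averaging under 10, leaving out each library, and 3 fits concerning transcript length. One subtracted a loess trend with the length and GC content of the longest transcript from each library, another added the slope on length as a covariate (13265 genes with a mean of at least 10), and the last left out libraries 1 and 2 of each label. The last 3 and the members, lists and rule for named genes (the 10 genes, up to 4 called genes per role, Reck and Adgra2, and 3 nearest patterns, of which 1 for Axin2 is not reported here) were chosen with earlier results of these data known. Genes named beyond that rule were chosen after their values were seen. There were 0 columns outside the series.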

Additional observations from a re-analysis of the deposited data

Results flagged for a closer look

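In wild-type-labelled library 1, Lgr5 had 372 normalised reads, far from the next value of 288, and the gap was 0.956 of the range of the 4 libraries (Dixon's test). This library also had the steepest positive length slope (0.26), and the part of the slope in this value was not tested. Without it the Lgr5 log2 fold change was -1.14 (limma-trend FDR = 0.0022). Recovered depth was 15647304 reads in wild-type-labelled library 3, low against the next value of 17982640 (gap 0.900 of the range). Over 26 groups of 4 values examined, 2 had such a gap, and chance gives one in about 1 group in 20.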

How the results depend on the processing

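The 7 calls among the 10 genes came to 7 with edgeR under either scaling, with a pseudocount of 0.1, with a minimum mean of 10 and without libraries 1 and 2 of each label. With library size scaling 7 were called as well, with Ctnnb1 in place of Axin2. They came to 8 with DESeq2 and with the length and GC trend subtracted, and to between 6 and 8 on leaving out single libraries. The slope covariate left 1 of the 10 genes, 2 of the 89 pathway genes and 170 of all genes called. Over all genes, 4593 were called as deposited, 2996 with the length and GC trend subtracted (1903 higher and 1093 lower) and 1422 without libraries 1 and 2 of each label. Leaving out 1 library gave 1884 to 5861 over all genes, and 16 to 28, against 24, in the pathway list. The lowest count was without knockout-labelled library 1, and 2189 and 2106 were called without wild-type-labelled library 1 or 2. Leaving out single libraries moved Lef1 between -0.37 and 0.055 on the log2 scale, with a changed sign without knockout-labelled library 4 (0.055) or wild-type-labelled library 1 (0.014). The cause of these shifts was not tested.

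With a replicate block, 333 of all genes, 2 of the 10 genes (Wnt7b and Lgr5) and 5 of the 89 were called. The labels do not say whether same-numbered libraries belong together. Same-numbered libraries had correlations of their deviations from the group means of -0.33, -0.13, -0.19 and -0.28. The libraries did not correlate best with their own number. These correlations cannot exclude a shared culture or batch, because the deviations also hold other differences between libraries, such as the length slope. Depth limits Lef1, Sp5, Notum and Rnf43.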
